A study of Homo sapiens with 30 samples.

Results

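Regulators of mRNA decay were followed in BEAS-2B, an immortalized human bronchial epithelial cell line, after exposure to whole birch pollen. The genes are ZFP36, ZFP36L1, ZFP36L2, ZC3H12A, ZC3H12C, BTG1, BTG2, BTG3, TOB1 and TOB2, chosen by name and found through the gene name that the array files give each probe. These 10 genes have 12 probes, out of 58201 probes with 43972 gene names on the array. Cells at the air-liquid interface received 10 mg of birch pollen, dispersed with pressured air into a sedimentation chamber, or a mock exposure in the same chamber with air and no pollen on the cells. RNA was taken from 10 min up to 24 h after exposure, with samplings at 55 min, at 2h25 min and at 6h50 min between. Each exposure and time had 3 arrays, which gave 10 groups and 30 arrays. All groups share the cell line, the culture at the air-liquid interface and the chamber, and no group was left outside it. The results describe 1 cell line grown on inserts without other airway cells. In these RNA samples fewer cells with a transcript and less transcript per cell cannot be told apart.

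These proteins all shorten the life of messenger RNAs, by different routes. ZFP36 (tristetraprolin) and its relatives ZFP36L1 and ZFP36L2 are CCCH zinc finger proteins that bind AU-rich elements in the 3′ ends of mRNAs, many of them for cytokines and growth factors, and bring the CCR4-NOT deadenylase, which removes the poly(A) tail. ZC3H12A (Regnase-1, also MCPIP1) and its relative ZC3H12C (Regnase-3) are endonucleases that cut mRNAs at stem-loops, IL6 and the transferrin receptor mRNA TFRC among their known targets. BTG and TOB proteins restrain proliferation and bind the CAF1 deadenylases CNOT7 and CNOT8. ZFP36, ZC3H12A and BTG2 are known as immediate early or stress response genes, so that in airway epithelium they are of interest as brakes on the transcripts induced by the same stimulus.

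The sequence before an annotated transcription start is shown for 4 of the genes that the results below turn on, as reference for where transcription can start. The sequences are RefSeq promoter windows on GRCh38.p14, of which the 250 bases before the start are printed 5′ to 3′ on the strand of the gene. Capitals mark matches to a searched motif. ZFP36 lies at chr19:39406597-39406846 on the plus strand, ZFP36L1 at chr14:68793417-68793666 on the minus strand, ZC3H12A at chr1:37474330-37474579 on the plus strand and BTG2 at chr1:203305269-203305518 on the plus strand.
ZFP36: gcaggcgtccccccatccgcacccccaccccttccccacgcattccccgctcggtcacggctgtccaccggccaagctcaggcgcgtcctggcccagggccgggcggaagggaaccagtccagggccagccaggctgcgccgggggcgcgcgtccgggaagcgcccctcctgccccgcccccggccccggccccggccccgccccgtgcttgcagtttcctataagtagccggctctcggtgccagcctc
ZFP36L1: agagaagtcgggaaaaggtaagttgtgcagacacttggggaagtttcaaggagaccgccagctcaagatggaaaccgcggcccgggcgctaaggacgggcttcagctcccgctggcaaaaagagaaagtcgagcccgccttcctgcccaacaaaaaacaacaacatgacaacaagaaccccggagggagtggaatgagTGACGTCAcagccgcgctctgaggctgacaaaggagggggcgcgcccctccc
ZC3H12A: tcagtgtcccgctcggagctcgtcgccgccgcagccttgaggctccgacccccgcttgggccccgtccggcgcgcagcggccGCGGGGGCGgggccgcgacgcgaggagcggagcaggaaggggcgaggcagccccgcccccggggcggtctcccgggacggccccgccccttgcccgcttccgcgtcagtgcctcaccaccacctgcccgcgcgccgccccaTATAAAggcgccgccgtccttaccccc
BTG2: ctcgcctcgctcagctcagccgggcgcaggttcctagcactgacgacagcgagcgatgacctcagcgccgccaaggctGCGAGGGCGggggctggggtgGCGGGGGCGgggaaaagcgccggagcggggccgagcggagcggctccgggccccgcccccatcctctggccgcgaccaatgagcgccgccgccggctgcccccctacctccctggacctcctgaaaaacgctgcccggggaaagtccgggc

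The motifs searched on both strands were the cyclic AMP response element TGACGTCA, the AP-1 site TGANTCA, the EGR site GCGNGGGCG, the TATA box TATAAA, and the kB and CArG elements, with no overlap between matches in the printed windows. ZFP36L1 has a cyclic AMP response element that begins 52 bases before the start of the printed window. Another RefSeq start of ZFP36L1, at chr14:68796243, had no match in its window, which is not printed. ZC3H12A has an EGR match 168 bases and a TATA box 27 bases before it, and BTG2 has EGR matches at 172 and 151 bases. No searched motif was found in the ZFP36 window, which says only that these letters are not in these 250 bases. Of the 10 genes 9 had a RefSeq entry, with 12 windows, and 5 genes had a match. Of all 35116 windows, 1.65% held the cyclic AMP response element, 6.57% the AP-1 site, 8.41% the EGR site, 10.7% the TATA box, 9.96% the kB element and 1.16% the CArG element.

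Each value below is the log2 of the background-subtracted spot signal minus the log2 of the 75th percentile of the same array, so that 0 is the brightness of that percentile and 1 unit is a doubling of signal. All 12 probes were well above background on every array that carries them, and no probe was saturated on any array. Between 44.7 and 63.2% of the probes were well above background per array, and the 75th percentile lay between 578 and 2111 intensity units. The number of arrays limits the precision. Of 8 epithelial markers 8 were above background on all arrays, as were 4 of 6 mesenchymal, 2 of 5 leukocyte and 1 of 4 endothelial markers. The leukocyte marker CD68 had no probe under that name and was not measured. The fibrillar collagen gene COL3A1 and the endothelial gene PECAM1 were above background on no array. The 30 arrays lie on 5 slides. The 55 min pollen replicate 1 array is alone on slide 1 and of another design that lacks the brighter of the BTG1 probes. All 6h50 min arrays fill slide 2, slide 3 holds the 10 min arrays and the 55 min mock replicate 1, slide 4 holds replicates 2 and 3 of 55 min and replicates 1 and 2 of 2h25 min, and slide 5 holds replicate 3 of 2h25 min and the 24 h arrays. P-values, standard errors and confidence intervals rest on the spread between arrays within a group, pooled over all 10 groups. Each array is from its own culture. The standard error is therefore not that of the groups compared. For ZFP36 it is the same at 55 min, with SDs of 0.77 (mock) and 0.49 (pollen), and at 2h25 min, with 0.18 and 0.23.

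The first comparison asked whether the decay regulators differed between pollen and mock exposed cells at each time. The zinc finger regulators were higher with pollen at 55 min and at 2h25 min, by 1.3 to 1.7-fold for those with an unadjusted p under 0.05. No member was called at any time in the main fit, which does not pair arrays. With the replicate number as a block, ZFP36L1 and ZC3H12A were called at 2h25 min, as given below. Called here means at least 1.1-fold different with an adjusted p under 0.05, where the Benjamini-Hochberg adjustment ran over 32100 tested probes. With this limma fit 0 of 10 members were called at each of the 5 times. Of all tested probes 0% were called at 10 min and 0.00312% at 55 min. The share was 0.0343% at 2h25 min, 0.0436% at 6h50 min and 0.00312% at 24 h.

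ZFP36, the founding member of its family, was measured by a probe at chr19:39899758-39899817 (hg19, plus strand). At 55 min its values were 0.50, 0.85 and 1.98 in the mock replicates 1 to 3 and 1.45, 1.66 and 2.38 in the pollen replicates. Each pollen array was higher than the mock array of the same number, but the groups overlapped, since mock replicate 3 lay above both lower pollen arrays. The difference was 0.72 on the log2 scale (SE 0.25, 95% confidence interval 0.21 to 1.24), or 1.65-fold, with a limma adjusted p of 0.92. At 2h25 min the values were 0.90, 0.75 and 1.12 with mock and 1.55, 1.68 and 1.23 with pollen. These groups did not overlap. The difference was 0.56 (SE 0.25, 95% confidence interval 0.05 to 1.08) and was not called. At 10 min, 6h50 min and 24 h the ZFP36 differences were 0.15, 0.02 and −0.05, and the groups overlapped at each of these times.

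ZFP36 at 55 min turned on single arrays. Without mock replicate 3 the difference was 1.16 and was called (limma adjusted p = 0.0225), and without mock replicate 1 or pollen replicate 3 it was 0.42 or 0.45. The percentile over the own probes of each array, which differ on the array of the other design, gave 0.31 and moved the median of all probes at this time by construction to −0.37. Between arrays of slide 4 alone the difference was 0.61.

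ZFP36L1, which shares the AU-rich element binding domain, was measured by a probe at chr14:69254476-69254535 (hg19, minus strand). At 2h25 min it read 2.49, 2.61 and 2.62 with mock and 3.20, 3.36 and 3.07 with pollen. All pollen arrays lay above all mock arrays, and the spread within each group was smaller than the gap. The difference was 0.64 (SE 0.17, 95% confidence interval 0.29 to 0.98), or 1.55-fold, with a limma adjusted p of 0.507, the lowest of the members at this time. The other ZFP36L1 probe, at chr14:69255354-69255413, gave 0.58 (limma adjusted p = 0.657), and over the 30 arrays the readings of both probes had a Pearson correlation of 0.902. At 55 min the difference was 0.21 on the first probe (limma adjusted p = 0.935) and 0.35 on the other (limma adjusted p = 0.92).

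ZFP36L2, the remaining family member on the array, behaved much like ZFP36L1 at 2h25 min. It read 0.70, 1.06 and 0.74 with mock and 1.56, 1.67 and 1.19 with pollen, with no overlap. The difference was 0.64 (SE 0.19, 95% confidence interval 0.25 to 1.03, limma adjusted p = 0.826). At 55 min the values of 0.77, 0.77 and 0.61 with mock lay below those of 1.14, 1.00 and 0.83 with pollen, and the difference was 0.27 (limma adjusted p = 0.923). Across the 10 group means ZFP36L1 and ZFP36L2 had a Pearson correlation of 0.880, while that of ZFP36 was 0.580 with ZFP36L1 and 0.345 with ZFP36L2, given as a description of means that share arrays and scaling.

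ZC3H12A, the endonuclease Regnase-1, was measured at chr1:37949708-37949767 (hg19, plus strand). At 55 min it read −1.57, −1.04 and −0.60 with mock and −1.19, −0.15 and −0.03 with pollen. Replicates 2 and 3 of pollen were above every mock array, whereas pollen replicate 1, the array of the other design, lay below mock replicates 2 and 3. The difference was 0.61 (SE 0.24, 95% confidence interval 0.11 to 1.12, limma adjusted p = 0.92), and it was 0.98 without pollen replicate 1, 0.36 without mock replicate 1 and 0.40 without pollen replicate 3. At 2h25 min the values were −1.09, −1.14 and −0.98 with mock and −0.54, −0.17 and −0.43 with pollen. Here no arrays overlapped, and the mock group spanned a narrow range. The difference was 0.69 (SE 0.24, 95% confidence interval 0.19 to 1.19), or 1.61-fold, and was not called.

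ZC3H12C, the endonuclease Regnase-3, was higher with pollen by a similar amount at both times. At 55 min it read −0.52, −0.69 and −0.32 with mock and −0.02, −0.11 and −0.13 with pollen, without overlap, and the difference was 0.42 (SE 0.15, 95% confidence interval 0.10 to 0.74, limma adjusted p = 0.92). At 2h25 min it read −0.35, −0.96 and −0.50 with mock and 0.02, −0.45 and −0.14 with pollen. The groups overlapped there through pollen replicate 2, and the difference of 0.41 (95% confidence interval 0.09 to 0.73) was 0.23 without mock replicate 2. At 6h50 min and 24 h the ZC3H12C differences were −0.13 and −0.11.

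**Figure D1:**
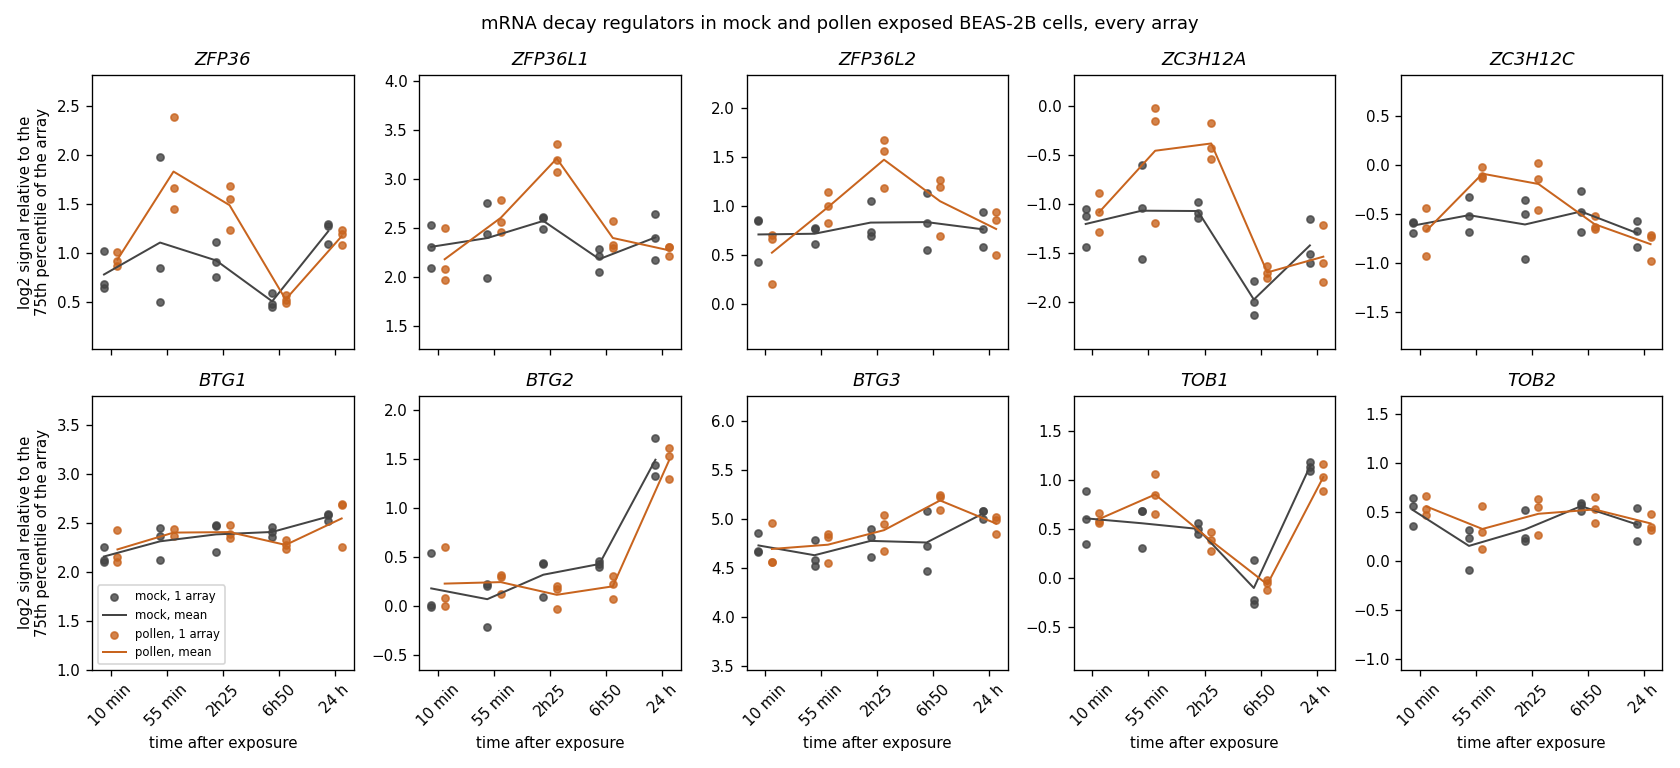
Log2 signal relative to the 75th percentile of the array (y axis) against time after exposure (x axis, categories) for the 10 genes, with 1 point per array (grey, mock, and orange, pollen, 3 per group) and lines through the group means. All panels span the same range on the y axis. ZFP36L1, ZFP36L2 and ZC3H12A of the 2h25 min pollen arrays lie above all 2h25 min mock arrays, and BTG2 is near 1.5 in both exposures at 24 h.

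At 2h25 min same-numbered mock and pollen arrays deviated together, so the fit with the replicate number as a block is given beside these results. In that fit 2 of 10 members were called at 2h25 min. Of all tested probes 42 were called higher and 2 lower in it at this time, against 11 and 0 in the main fit. With the block ZFP36L1 (adjusted p = 0.0494) and ZC3H12A (adjusted p = 0.0284) were called, at unchanged differences of 0.64 and 0.69. ZFP36L2 had an adjusted p of 0.14 there, ZFP36 0.253 and ZC3H12C 0.373. Between the arrays of slide 4 alone, replicates 1 and 2 of each exposure, the differences at 2h25 min were 0.79 for ZFP36, 0.73 for ZFP36L1, 0.74 for ZFP36L2 and 0.76 for ZC3H12A. Between the replicate 3 arrays, which are on slide 5, they were 0.12, 0.45, 0.45 and 0.55 in the same order.

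The products of the BTG and TOB genes bind the CAF1 deadenylases. At 2h25 min their differences between pollen and mock ranged from −0.20 for BTG2 to 0.16 for TOB2, and none of the 5 had an unadjusted limma p under 0.05. TOB1 read 0.69, 0.31 and 0.69 with mock at 55 min and 1.07, 0.65 and 0.85 with pollen. The TOB1 groups overlapped, with a difference of 0.29 (SE 0.14, limma adjusted p = 0.92), which was 0.17 without mock replicate 2 and 0.19 without pollen replicate 1. BTG1 on its brighter probe differed by 0.09 at 55 min, where that probe was missing from pollen replicate 1 and n was 2. Its other probe gave 0.07.

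BTG3 had its clearest difference at 6h50 min, when it read 4.47, 4.73 and 5.08 with mock and 5.09, 5.23 and 5.25 with pollen. The highest mock array came close to the lowest pollen array. The difference was 0.43 (SE 0.14, 95% confidence interval 0.14 to 0.72), with a limma adjusted p of 0.299, the lowest of any member in any comparison with mock. The BTG3 spot lies in a dim area of the array on mock replicates 1 and 2 at this time. Medians of such areas were as low as −1.44 and −0.83 against the other arrays. Without the spots in such areas the difference was 0.11, with mock replicate 3 as the only mock value left. Without mock replicate 3 it was 0.59 and was called (limma adjusted p = 0.026), but the mock arrays left are those with the dim area. Without mock replicate 1 it was 0.28.

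**Figure D2:**
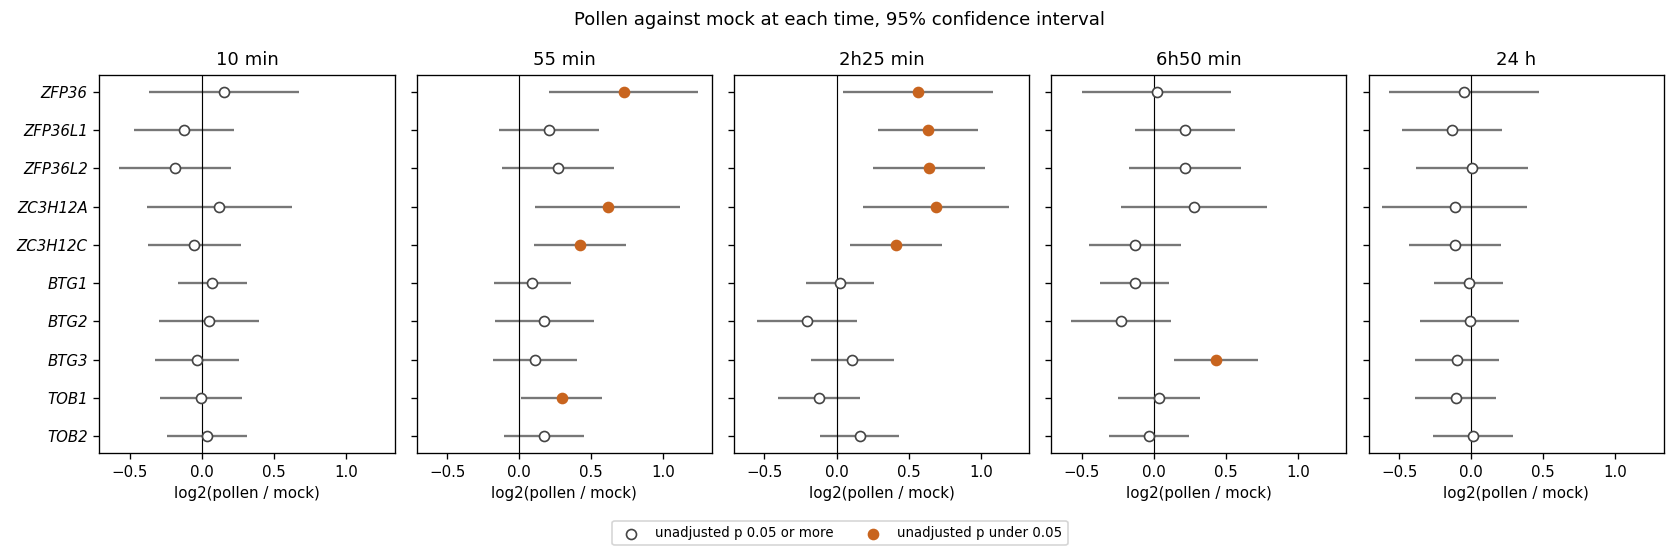
Difference between pollen and mock, log2(pollen / mock) (x axis), for the 10 genes (y axis) at the 5 times, with the 95% confidence interval of the limma fit as a bar and filled points where the unadjusted p was under 0.05. Filled points are 4 at 55 min, 5 at 2h25 min and 1 at 6h50 min, and none at 10 min or 24 h.

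At 55 min 10 of 10 members were higher with pollen, with a median of 0.24 against −0.01 over all tested probes. An unadjusted limma p under 0.05 and a higher value were found for 4 of 10 members, ZFP36, ZC3H12A, ZC3H12C and TOB1, against 1.52% of all tested probes. The groups did not overlap for 2 of 10, against 10.8% of all probes. With the percentile over own probes 4 of 10 members were higher at 55 min and their median was −0.13, beside −0.37 over all probes. At 2h25 min 8 of 10 were higher with a median of 0.29 against −0.03, 5 of 10 passed the unadjusted threshold with a higher value against 1.51%, and the groups of 4 of 10 did not overlap against 6.97%. These 5 were the zinc finger genes ZFP36, ZFP36L1, ZFP36L2, ZC3H12A and ZC3H12C. The difference between them and the BTG and TOB genes was not tested.

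Fewer members passed the unadjusted threshold at the other times. At 6h50 min 1 of 10, BTG3, passed the unadjusted threshold with a higher value against 5.04% of all probes. The groups of 5 of 10 did not overlap there against 11.7%, with ZFP36L1, ZC3H12A and BTG3 higher and BTG1 and BTG2 lower with pollen. On the other probe of ZFP36L1 the groups overlapped, at 1.71 to 2.04 with mock and 1.80 to 2.11 with pollen. The other BTG1 probe overlapped too, at 0.20 to 0.48 with mock and 0.04 to 0.27 with pollen. For BTG3 the dim area given above applies. BTG2 read 0.46, 0.40 and 0.42 with mock and 0.22, 0.07 and 0.31 with pollen at 6h50 min, a difference of −0.23 (limma adjusted p = 0.902). At 10 min 0 of 10 passed against 1.42%, with differences between −0.19 and 0.15, and at 24 h 0 of 10 against 2.56%, with differences between −0.13 and 0.01.

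The change of the pollen effect between neighbouring times was tested by interaction contrasts in limma, at an adjusted p under 0.05. None of the 10 members passed in the contrasts of 55 min with 10 min, 2h25 min with 55 min, 6h50 min with 2h25 min and 24 h with 6h50 min, where 0, 0, 0.00312 and 0% of all probes passed. Unadjusted p-values under 0.05 were found for 1 member in each, against 3.77, 1.38, 5.6 and 5.16% of all probes. ZC3H12C gained 0.48 from 10 min to 55 min (limma adjusted p = 0.945) and lost 0.54 from 2h25 min to 6h50 min (limma adjusted p = 0.839). TOB1 had a change of −0.42 from 55 min to 2h25 min (95% confidence interval −0.82 to −0.02) and BTG3 of −0.53 from 6h50 min to 24 h (limma adjusted p = 0.893).

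The next comparison set the members beside the decay machinery and the mRNAs known to carry AU-rich elements or Regnase stem-loops. Among 23 such target mRNAs, 20 were higher with pollen at 55 min with a median difference of 0.78, and 22 at 2h25 min with a median of 0.82. With an unadjusted limma p under 0.05, 13 of 23 were higher at 55 min and 11 of 23 at 2h25 min, where 1 was lower. Only LIF, a cytokine of the IL-6 family, was called, at 2h25 min (1.1 on the log2 scale, SE 0.18, limma adjusted p = 0.0271). This list was drawn up with earlier results of these data known, and its directions are no independent evidence.

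IL6, a target of both families and a main inflammatory cytokine, differed by 1.36 (SE 0.53) at 55 min and 1.45 (SE 0.53) at 2h25 min. The neutrophil chemokine CXCL8 differed by 0.51 (SE 0.69) and 1.38 (SE 0.69), and CXCL2, of the same function, by 1.61 (SE 0.49) and 0.81 (SE 0.49). TNF, whose AU-rich element is the classic site of ZFP36, differed by 0.14 and 0.73 (SE 0.45 each) and was not well above background on 1 array each of 55 min pollen and 2h25 min mock. NFKBIZ, an inducer of secondary inflammatory genes, differed by 1.15 and 0.68 (SE 0.38 each). None of these 5 was called. TFRC, which takes up transferrin iron, went the other way, with −0.09 at 55 min, −0.89 at 2h25 min (SE 0.19, limma adjusted p = 0.159) and −0.79 at 6h50 min. The list had a median of 0.34 at 6h50 min.

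No gene of 5 lists of decay machinery and its regulators was called with pollen at any time. Of 17 deadenylase genes 1 had an unadjusted p under 0.05 at 55 min and 0 at 2h25 min, and their median was 0.06 at both times. The CCR4-NOT scaffold CNOT1 differed by 0.03 and 0.00, the catalytic subunit CNOT7 by 0.23 and 0.13, and CNOT8, its close relative, by 0.10 and 0.22. Medians at 55 min and 2h25 min were 0.09 and −0.01 for 17 decapping and 5′ to 3′ decay genes, −0.05 and −0.03 for 16 exosome genes, and 0.10 and −0.01 for 16 other RNA-binding regulators. For 10 kinases, phosphatases and proteases that act on the regulators they were 0.06 and −0.03. MAPKAPK2, the kinase that phosphorylates ZFP36, differed by −0.03 at both times, and MALT1, the protease that cleaves ZC3H12A, by 0.12 and 0.26. The widest differences of these lists at 55 min, named here after their values were seen, were 0.92 (SE 0.34, limma adjusted p = 0.92) for DUSP1, a phosphatase of p38 that is also among the 23 target mRNAs, and −1.27 (SE 0.52, limma adjusted p = 0.92) for ZC3H12D, a dim relative of ZC3H12A that was well above background on 2 of 3 pollen arrays.

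**Figure D3:**
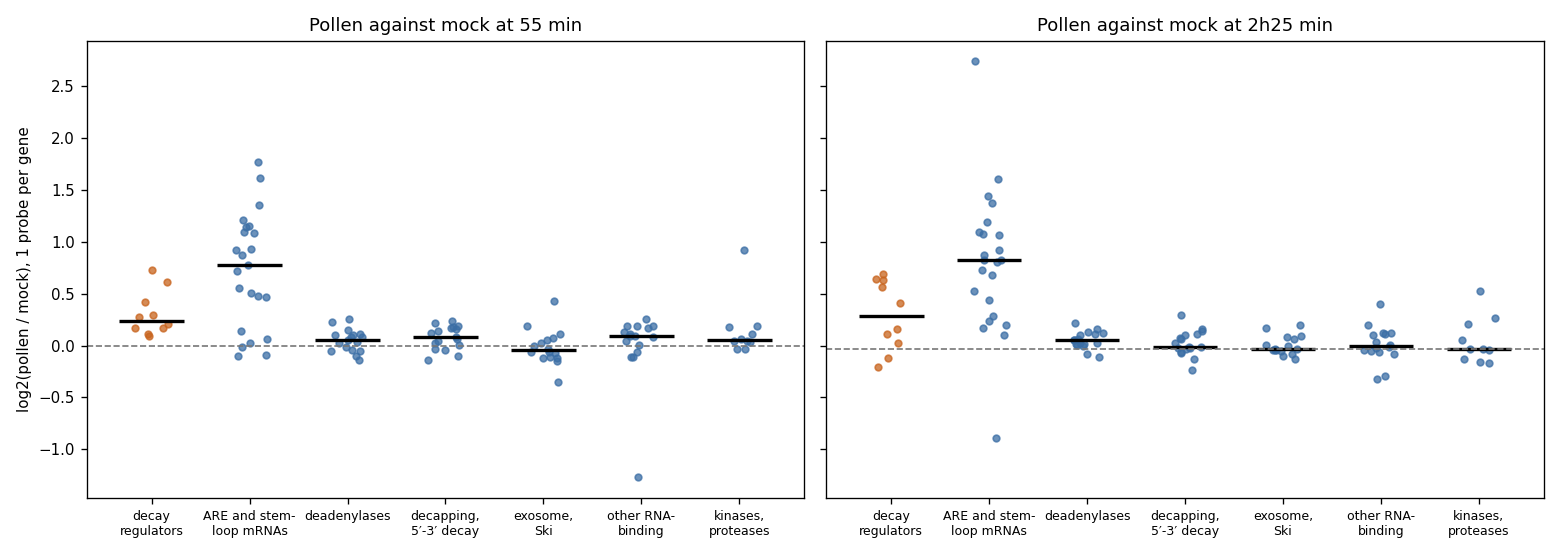
Difference between pollen and mock, log2(pollen / mock) with 1 probe per gene (y axis), at 55 min and 2h25 min for the 10 decay regulators (orange) and 6 related gene lists (blue). Black bars are list medians and the dashed line is the median of all tested probes. The mRNAs with AU-rich elements or stem-loops have medians of 0.78 and 0.82, the decay regulators 0.24 and 0.29, and the medians of the other lists lie between −0.05 and 0.10.

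The course over time was compared within each exposure. Early changes were seen in the pollen cells but were not called. From 10 min to 55 min 0 of 10 members were called in pollen cells against 0.841% of all probes. An unadjusted limma p under 0.05 and a higher value were found for 5 of 10, against 6.68% of all probes, and none was lower. ZFP36 differed by 0.90 (SE 0.25, limma adjusted p = 0.089), ZC3H12C by 0.58 (adjusted p = 0.0756) and ZC3H12A by 0.63 (adjusted p = 0.225). Without pollen replicate 1 of 55 min ZC3H12A differed by 0.99 and was called (limma adjusted p = 0.0319). In mock cells 0 of 10 were called over this step against 0.187%, and the ZFP36 difference was 0.33, or −0.11 without mock replicate 3 of 55 min. The only mock member with an unadjusted p under 0.05 was TOB2, at −0.37 (limma adjusted p = 0.317), where 4.14% of all probes passed with a lower value. In pollen cells the 10 min arrays are all on slide 3 and the 55 min arrays on slides 1 and 4, so that time and slide cannot be told apart over this step. With the slide as a random block the pollen differences were 0.66 for ZFP36, 0.59 for ZC3H12C and 0.44 for ZC3H12A.

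From 55 min to 2h25 min again 0 of 10 members were called, in pollen cells against 0.202% and in mock cells against 0.0156% of all probes. In pollen cells ZFP36L1 was 0.61 higher (limma adjusted p = 0.196) and ZFP36L2 0.48 higher (limma adjusted p = 0.477), whereas TOB1 was 0.47 lower (limma adjusted p = 0.229). The sign of this TOB1 difference changed with the percentile over own probes. That setting moved the median of all probes over this step in pollen cells to 0.42. ZFP36 had its highest pollen mean at 55 min (1.83 ± 0.49, SD, n = 3), ZFP36L1 and ZFP36L2 theirs at 2h25 min (3.21 ± 0.15 and 1.47 ± 0.25). Whether these peak times differ was not tested.

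From 2h25 min to 6h50 min 5 of 10 members fell in pollen cells against 19.9% of all probes called lower. ZC3H12A fell the most, by 1.32 (SE 0.24), or 2.49-fold, from −0.54, −0.17 and −0.43 to −1.70, −1.76 and −1.63 (limma adjusted p = 0.000442). ZFP36 fell by 0.96 (adjusted p = 0.00603) to 0.48, 0.57 and 0.52, and ZFP36L1 by 0.81 (adjusted p = 0.0011), both from the limma fit. For these genes no 6h50 min pollen array reached the lowest 2h25 min pollen array. TOB1 fell by 0.44 (limma adjusted p = 0.017) and ZC3H12C by 0.41 (limma adjusted p = 0.0471), and the ZC3H12C call was lost in 11 of 18 other settings.

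In mock cells 2 of 10 fell over the same step against 22.6%. ZC3H12A fell by 0.90 (SE 0.24, limma adjusted p = 0.00763) to −2.14, −2.00 and −1.79, and TOB1 by 0.60 (SE 0.14, limma adjusted p = 0.00228) to −0.26, 0.19 and −0.22. The ZFP36L1 probes differed by −0.39 (limma adjusted p = 0.0769) and −0.45 (limma adjusted p = 0.0367). The share of members that fell in mock cells was thus no higher than that of all probes. All 6h50 min arrays are on slide 2, which holds no other time, so this time and its slide cannot be told apart. The median of all probes was −0.15 in mock and −0.11 in pollen cells, and of the probes called 30.5 and 35.8% were higher, against 46.0 and 46.2% under quantile normalization.

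From 6h50 min to 24 h 3 of 10 members rose in each exposure, BTG2, TOB1 and ZFP36, against 24.7% of all probes called higher in mock cells and 21.8% in pollen cells. TOB1, an antiproliferative partner of CAF1, rose by 1.24 (SE 0.14, limma adjusted p = 1.01e-06) in mock and by 1.1 (limma adjusted p = 4.7e-06) in pollen cells. BTG2, a p53 target, rose by 1.06 (SE 0.17, limma adjusted p = 4.17e-05) and by 1.28 (limma adjusted p = 7.43e-06). ZFP36 rose by 0.71 (limma adjusted p = 0.0265) and by 0.65 (limma adjusted p = 0.0474), and these calls were lost in 7 and 10 of 18 other settings. The median of all probes was 0.14 and 0.11, and of the calls 60.8 and 60.1% were higher, against 48.3 and 51.5% with the log2 table of the authors, in which each of the 6 columns of 24 h matched another array of its group better than its own.

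Between 10 min and 24 h, which avoids slide 2, 3 of 10 members rose in each exposure, against 17.5% in mock and 15.8% in pollen cells. BTG2 rose the most. It read 0.01, 0.54 and −0.01 at 10 min and 1.32, 1.44 and 1.71 at 24 h in mock cells, and 0.08, 0.60 and −0.00 against 1.53, 1.30 and 1.61 in pollen cells. Every 24 h array lay above every array of the other times. The mock difference was 1.31 (SE 0.17, 95% confidence interval 0.97 to 1.66), or 2.48-fold (limma adjusted p = 2.62e-06), and the pollen difference was 1.25 (limma adjusted p = 7.62e-06). At 24 h pollen and mock cells differed by −0.01 for BTG2 (95% confidence interval −0.36 to 0.33).

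TOB1 rose by 0.53 (SE 0.14, limma adjusted p = 0.00395) in mock and 0.43 (limma adjusted p = 0.018) in pollen cells from 10 min to 24 h. Without pollen replicate 1 of 10 min or of 24 h the pollen call was lost, at adjusted p-values of 0.053 and 0.089. BTG1 on its brighter probe rose by 0.41 (limma adjusted p = 0.00795) and 0.32 (limma adjusted p = 0.0369), but its other probe gave 0.02 and 0.14, which were not called. The pollen call of BTG1 was lost in 10 of 18 other settings. The BTG1 probes had a Pearson correlation of 0.445 over 29 arrays, so the BTG1 change rests on 1 probe. Of all probes called between 10 min and 24 h, 46.7% in mock and 44.8% in pollen cells were higher, against 53.8 and 54.6% under quantile normalization.

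All 10 min arrays are on slide 3 and all 24 h arrays on slide 5, so that between these times time and slide cannot be told apart. Slide 5 also holds 2h25 min replicate 3 of both exposures. There BTG2 read 0.43 in mock and 0.20 in pollen at 2h25 min, below the 24 h ranges of 1.32 to 1.71 and 1.30 to 1.61 on the same slide. TOB1 read 0.56 and 0.47 at 2h25 min against 1.1 to 1.19 and 0.89 to 1.17. For ZFP36 the 2h25 min arrays of slide 5, at 1.12 and 1.23, lay beside 24 h values of 1.09 to 1.30 and 1.08 to 1.23. The mock array was within that range and the pollen array at its upper end.

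**Figure D4:**
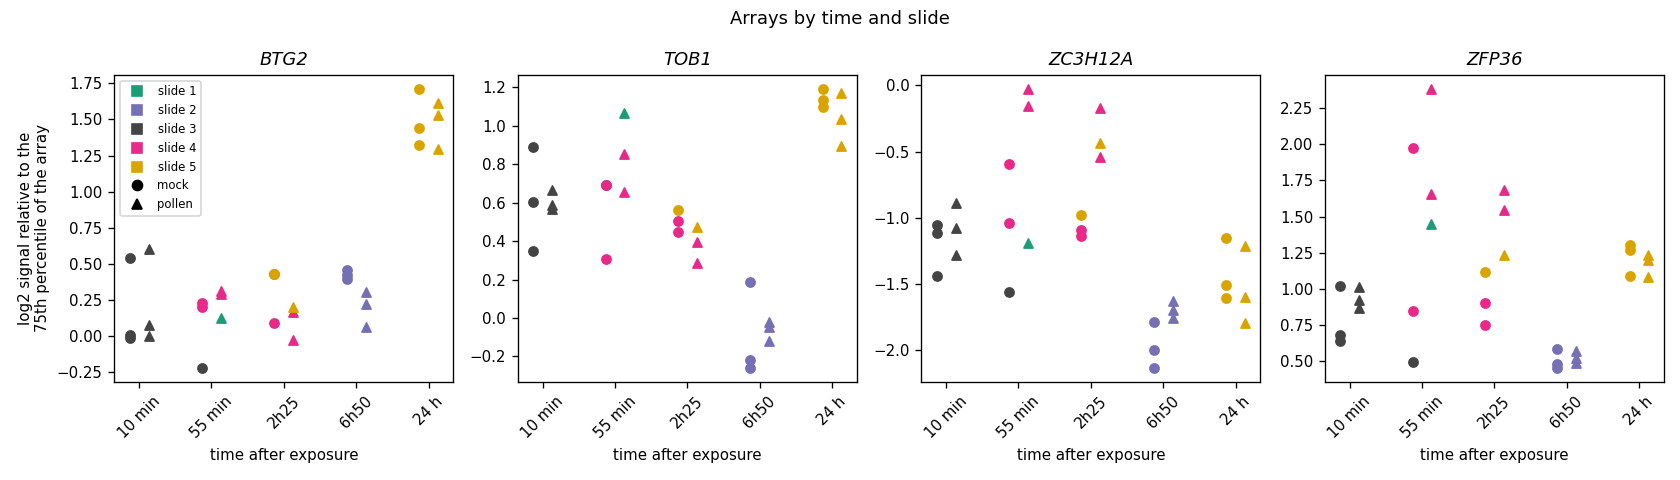
Log2 signal relative to the 75th percentile of the array (y axis) against time after exposure (x axis, categories) for BTG2, TOB1, ZC3H12A and ZFP36, with 1 point per array, coloured by slide, circles for mock and triangles for pollen. On slide 5 BTG2 is at 0.43 and 0.20 at 2h25 min and between 1.30 and 1.71 at 24 h, and slide 2 holds only 6h50 min.

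Ordered by group mean, ZFP36 ran from 1.83 in pollen cells at 55 min down to 0.51 in mock cells at 6h50 min. Each group overlapped its neighbour in this order, except that the 10 min mock arrays (0.64 to 1.02) lay above the 6h50 min pollen arrays (0.48 to 0.57). ZC3H12A was highest in pollen cells at 2h25 min (−0.38 ± 0.19, SD, n = 3) and 55 min (−0.46 ± 0.64) and lowest in mock cells at 6h50 min (−1.97 ± 0.18), and the break between neighbours was at that lowest group, whose arrays all lay below the 6h50 min pollen arrays. For BTG2 the break was between the 24 h groups, with means of 1.49 and 1.48, and the mock cells at 6h50 min with 0.43.

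Genes with the most similar course were ranked by the Pearson correlation of 10 group means among 18008 genes above background on all arrays. Nearest to ZC3H12A were the transcription factor genes NFIB (0.961), BCL6 (0.955) and BHLHE40 (0.952). Nearest to BTG2 were CAVIN4 (0.992), a caveola protein gene, SLC38A7 (0.991), an amino acid transporter gene, and an unnamed transcript (0.992). The 3 nearest to ZFP36 were transcripts without an established gene name, with correlations between 0.924 and 0.943. Among the members the highest correlations were 0.880 for ZFP36L1 with ZFP36L2, 0.817 for ZFP36 with ZC3H12A and 0.790 for BTG1 with BTG2. With 10 means that share arrays and scaling, such values are a description.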

How the data were processed

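RNA of 30 BEAS-2B cultures was hybridised to 1-colour Agilent arrays. The authors deposited spot intensities, which per the file headers Feature Extraction (version 11.0.1.1 in the submitters' processing notes) had background subtracted and detrended within each array without scaling between arrays. Also deposited by the authors were log2 values, quantile normalized by their quantiles and used as an alternative only. In R 4.3.3 with the data.table package (version 1.17.8), outlier spots were left out, replicate spots averaged, log2 taken and the 75th percentile of each array over the 33873 probes shared by both array designs subtracted. The tests took in probes that were well above background throughout 1 or more groups of 3 arrays, which left 32100 probes for 24518 gene names. This filter kept 12 of 12 member probes. The build of probe positions is hg19, by the array files.

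All 30 arrays entered 1 fit of 10 group means with limma 3.58.1 (20 residual and 2.35 prior degrees of freedom). Contrasts were 5 of pollen with mock, 10 between times and 4 of the pollen effect between times, each adjusted by Benjamini-Hochberg over all tested probes. A probe was called at an adjusted p under 0.05 and, outside the interaction contrasts, a change of at least 1.1-fold. A gene is represented by its brightest probe. The other probes of BTG1 and ZFP36L1 are given beside it in some of the comparisons. The percentile over shared probes replaced one over own probes after the designs had been seen. The fit was tested on simulated data.

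The members and gene lists were chosen with earlier results of these data known. Named genes are all 10 members, with IL6, CXCL8, CXCL2, TNF, NFKBIZ, TFRC, MAPKAPK2, MALT1, CNOT1, CNOT7 and CNOT8 of the lists, up to 2 called genes per list and direction, and the 3 genes most like ZFP36, ZC3H12A and BTG2. The replicate numbers come from the labels. Deviations of same-numbered mock and pollen arrays from group means correlated at 0.296 to 0.309 at 10 min and 0.377 to 0.504 at 2h25 min. At 24 h they correlated at 0.193 to 0.420, and all were over 0.1. These arrays were taken as paired, but the main fit has no block, so its p-values leave the pairing out. The fit with the replicate number as a block is the alternative that takes it in. Alternatives were 14 other settings, and leaving out each of the 30 arrays in turn. Figures were drawn with matplotlib 3.10.9 in Python 3.11.15.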

Additional observations from a re-analysis of the deposited data

How the results depend on the processing

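Of 190 member values 19 were called, and no called value changed sign in the 342 values that the alternatives and the left-out arrays gave for them. Of all 3730 such values 256 had the opposite sign, all in results that were not called, and none of these was larger than 0.44. In the main fit the largest absolute value among these results was 0.47, for TOB1 in pollen cells from 55 min to 2h25 min. The calls of BTG2 at 24 h against both earlier times were kept in 18 of 18 settings in each exposure. Counts of called members that moved are the following. With array weights 3 were called for pollen against mock at 55 min, 1 at 6h50 min, 6 in mock cells from 6h50 min and from 10 min to 24 h, and 3 in pollen cells from 10 min to 55 min. The added members at 55 min were ZFP36, ZC3H12A and ZC3H12C (limma adjusted p 0.026, 0.00281 and 0.0202) and at 6h50 min BTG3 (0.0296). The BTG3 spot lies in a dim area on mock replicates 1 and 2 of 6h50 min. With these weights all probes called higher and lower were 173 and 58 at 55 min, against 1 and 0 in the main fit. At 6h50 min they were 460 and 70 against 12 and 2. In mock cells they were 10840 and 6804 from 6h50 min to 24 h against 7917 and 5095. From 10 min to 24 h they were 7978 and 9004 against 5620 and 6418. In pollen cells from 10 min to 55 min they were 825 and 502 against 135 and 135. With the percentile over own probes 0 members were called in mock and 1 in pollen cells from 2h25 min to 6h50 min. From 10 min to 24 h 1 was called in pollen cells. With the slide as a random block these 3 counts were 1, 2 and 1. All probes called higher and lower in that order were 1262 and 2813, 1286 and 2673, and 2685 and 2679 with own probes. With the slide block they were 1267 and 3093, 1536 and 2778, and 2648 and 3022. With normexp and quantile normalization 6 were called in mock cells from 6h50 min to 24 h and 2 in pollen cells from 10 min to 55 min. With the log2 table of the authors 7 and 2 were called. All probes called higher and lower were 6136 and 5781, and 209 and 156, with normexp. With the log2 table of the authors they were 6418 and 6875, and 205 and 99. In that table the column of 55 min pollen replicate 1 had a Spearman correlation of 0.000623 with its array and was left out of this setting. The 6 columns of 24 h had 0.936 to 0.956 and matched another array of their group best. The mock count from 6h50 min to 24 h in that table thus rests on columns that do not match their arrays.

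With the replicate block 2 were called for pollen against mock at 2h25 min in place of 0. In pollen cells from 2h25 min to 6h50 min 4 were called in place of 5. Of all probes, 42 were called higher and 2 lower in the first of these, and 3764 and 6616 in the second. Between times the block was the replicate number shared by all times. Deviations of same-numbered pollen arrays of 2h25 min and 6h50 min correlated at −0.07, −0.03 and −0.01. The block changed no other count of called members. Same-numbered arrays correlated at −0.05 to 0.23 at 55 min and 0.05 to 0.09 at 6h50 min and were not taken as paired there. The paper states that exposed cells always had a mock control from their own run. It does not say whether the replicate numbers mark these runs. Leaving out each array in turn gave 0 to 1 called members for pollen against mock at 55 min and at 6h50 min, 0 to 1 in pollen cells from 10 min to 55 min, 3 to 5 from 2h25 min to 6h50 min and 1 to 4 from 10 min to 24 h. All interaction counts stayed at 0. The comparison within a slide between times was added after the data had been seen. The number of arrays limits the precision, and the cause of these dependences was not tested.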
